A study of Homo sapiens with 6 samples.

Results

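The genes described here are 10 components and regulators of the NF-κB pathway, chosen by symbol from the deposited gene table: the subunit genes *NFKB1*, *NFKB2*, *RELA* and *RELB*, the IκB genes *NFKBIA*, *NFKBIB* and *NFKBIE*, and the TNF-responsive genes *TNFAIP3*, *BIRC3* and *TNFAIP2*. All 10 were found among the 12499 genes of the table, and all 10 passed the expression filter. No gene of the table had fewer than 51 counts summed over the 6 libraries. Shares over all genes below cover only genes with a row, and a missing row does not show that a gene had no counts. The cells were HaCaT keratinocytes, which are an immortalized human line. Infection lasted 48 hours, with either a lentivirus expressing human *ATF7*, LV-*ATF7*, or its negative control, LV-NC, and all cultures were then kept in high glucose for 24 hours. Every group thus carries the high glucose exposure. Poly(A) RNA from 3 libraries per group was sequenced, with 16686472 to 20562768 counts per library, and the comparison asks which transcripts differ when *ATF7* is delivered under high glucose. Nothing in the labels states that the 3 libraries of a group were separate cultures, so p-values measure the spread between these libraries, which may be technical.

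NF-κB proteins are dimers of Rel family subunits. RELA with the p50 product of *NFKB1* carries the canonical response to TNF, IL-1 and microbial ligands, and RELB with the p52 product of *NFKB2* carries the noncanonical response to receptors such as the lymphotoxin β receptor. IκB proteins hold the dimers in the cytoplasm until the IKK complex marks them for degradation, and the freed dimers switch on, among others, the genes of their own inhibitors. In keratinocytes the pathway drives cytokine and antimicrobial gene expression and restrains cell death.

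*ATF7*, as the gene delivered, was used to check the labels, and it went against them. Its normalized expression, in counts per 1000000 after TMM scaling (CPM), averaged 49.8 ± 2.98 CPM (SD, n = 3) under the LV-NC label and 25.2 ± 3.09 CPM (SD, n = 3) under the LV-*ATF7* label (log2 fold change -0.98, edgeR adjusted p = 1.89e-04). Exons of other genes share 18.3% of its exon bases on the same strand and 27.1% on the opposite strand. Each direction below therefore follows the deposited labels and not an independent check. LV-NC replicate 1 stood apart, with a chi-square per gene of 74.6 and 66.8 against LV-NC replicates 2 and 3, whereas the other 4 pairs of replicates lay between 2.84 and 10.3. All 10 keratinocyte markers listed were in the table. Their summed expression ran from 1985 to 2962 CPM in LV-NC and from 7748 to 8464 CPM in LV-*ATF7*. At an adjusted p under 0.05, 6 were higher in LV-*ATF7* and 1, *KRT14*, was lower, a share called of 70% beside 67.6% of all genes. *KRT17*, *KRT6A* and *CDH1* had lower means in LV-*ATF7* but did not pass. Of the defining keratins, *KRT5* rose from 266.4 ± 144.3 to 3354 ± 232.5 CPM (SD, n = 3 each), whereas *KRT14* was at 0.37, 12.5 and 11.3 CPM in LV-NC and between 1.38 and 1.82 CPM in LV-*ATF7*, with LV-NC replicate 1 the lowest of all. The adjusted p of *KRT14* was 0.0461, and from 0.105 to 0.128 when any library but LV-NC replicate 1 was left out. The leukocyte list had 2 of 8 genes in the table, summing to 2.25 to 5.92 CPM in LV-NC and 8.93 to 11.9 CPM in LV-*ATF7*, and *PTPRC* and *CD3E* had no row. The fibroblast list had 3 of 8 genes, at 66.6 to 85.6 and 155.7 to 192.3 CPM, the melanocyte list 2 of 5, at 17.5 to 24.8 and 12.2 to 13 CPM, and the endothelial list 2 of 4, at 1.12 to 5.50 and 84.6 to 89.9 CPM. The sums hide genes that moved apart. By group means, *COL1A1* fell from 36.7 to 16.8 CPM, *FBLN1* rose from 36.1 to 149.8 CPM, and *DCN* did not pass an adjusted p of 0.05. *MITF* fell from 18.8 to 8.13 CPM, and *PMEL* rose from 2.05 to 4.51 CPM. *CD14* rose from 1.61 to 8.17 CPM, and *ITGAM* did not pass. The endothelial sum was mostly *CDH5*, at 3.08 and 84.4 CPM. The part of these shifts in the results below was not tested. In bulk RNA, fewer cells of a type and less RNA per cell cannot be told apart.

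The sequences around the start sites are shown because several of these genes carry the κB motif, which NF-κB dimers bind. RefSeq promoter windows (GRCh38.p14), from 250 bases before to 50 bases after an annotated start, were given for 8 of the 10 members, in 13 windows. The letters searched, on both strands, were 4 exact 10-base κB sequences and the broader κB consensus, which contains all 4 and so overlaps them. The exact sequences can be read in the lines below: the capitals of *NFKB1*, the palindrome that opens the first capitals of *NFKB2*, the capitals of its later start, and the reverse complement of the capitals of *BIRC3*. A match lay in a window of 6 of these 8 genes, and each of the 6 held an exact sequence. The stretches are written 5′ to 3′ on the strand of the gene, with the matched bases in capitals, so a site on the other strand reads as its reverse complement.
*NFKBIA*, chr14:35404796-35404855, minus strand: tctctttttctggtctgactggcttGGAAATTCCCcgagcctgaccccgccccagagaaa
*TNFAIP3*, chr6:137867167-137867238, plus strand: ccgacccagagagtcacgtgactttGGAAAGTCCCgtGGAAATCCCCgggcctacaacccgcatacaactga
*BIRC3*, chr11:102317260-102317319, plus strand: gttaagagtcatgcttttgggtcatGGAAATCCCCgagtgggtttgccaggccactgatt
*NFKB1*, chr4:102501285-102501344, plus strand: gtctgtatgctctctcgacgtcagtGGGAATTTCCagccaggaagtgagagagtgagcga
*NFKB2*, first of its windows with a site, chr10:102394446-102394534, plus strand: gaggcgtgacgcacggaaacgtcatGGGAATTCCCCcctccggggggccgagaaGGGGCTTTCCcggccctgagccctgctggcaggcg
*NFKB2*, a later start, chr10:102395659-102395718, plus strand: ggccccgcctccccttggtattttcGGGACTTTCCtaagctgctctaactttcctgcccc
*NFKBIB*, chr19:38899916-38899976, plus strand: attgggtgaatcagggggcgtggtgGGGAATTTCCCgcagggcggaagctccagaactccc

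Across all genes with a RefSeq window, the sequence of *NFKB1* was found for 0.179% of genes, and among the members also for *NFKBIA* and *NFKBIB*. The sequence of the later *NFKB2* start was found for 0.227% of genes, and among the members also for *TNFAIP3*. That of *BIRC3* was found for 0.128% of genes and also for *TNFAIP3*, the palindrome for 0.0476% of genes and for no other member, and the κB consensus for 13.3% of genes. The windows of *RELA* and *TNFAIP2* held no match to any of them, which says only that these letters are not in those windows. In *TNFAIP3* the matches began 67 and 55 bases before the start, and in *NFKBIA* the match began 81 bases before it. A match is a description of the sequence. The members whose windows held one rose, fell and did not pass the test, as given below.

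Between the groups, 8 of the 10 members passed the threshold of 0.05 (edgeR quasi-likelihood fit, p-values adjusted by Benjamini-Hochberg across 12462 genes), where 67.6% of all genes tested did. By the labels, 6 were higher in LV-*ATF7*, against 34.7% of all genes, and 2 were lower, against 32.9%. Of these, 5, *NFKBIA*, *NFKBIE*, *TNFAIP3*, *BIRC3* and *TNFAIP2*, differed by at least 2-fold, as did 32.8% of all genes. The libraries of the groups did not overlap for 8 members and for 72.7% of all genes. The median log2 fold change was 0.37 over the 10 members and 1.6e-04 over all genes. Most genes of the table differed, so the count of members called is read against that background, and the size and direction of each follow.

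**Figure D1:**
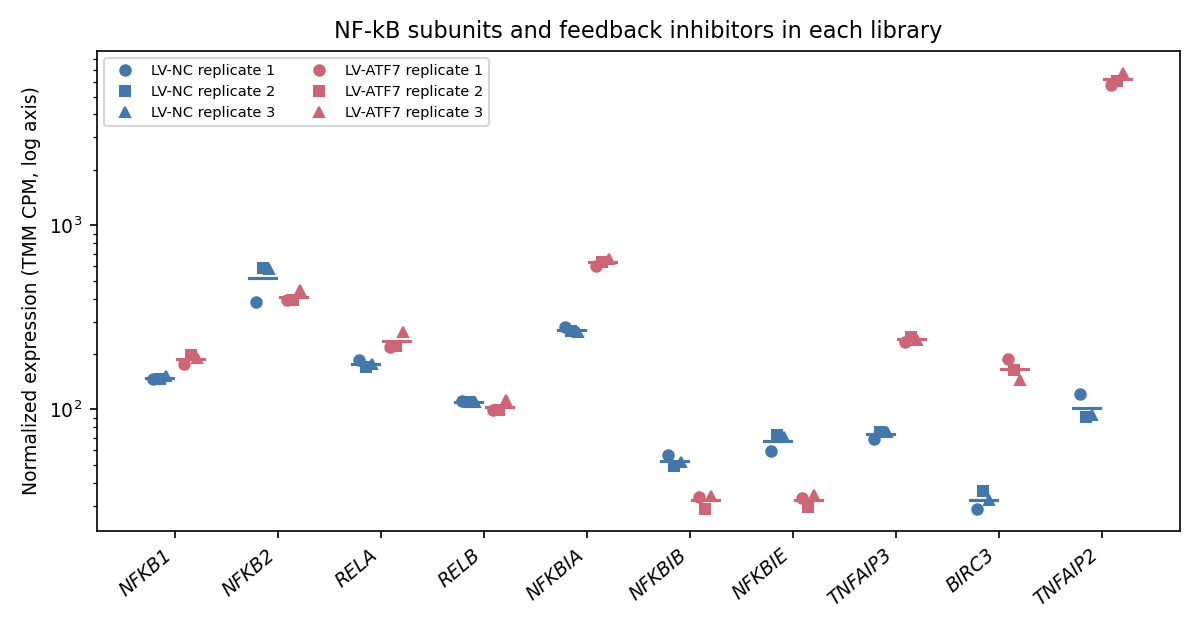
Normalized expression of the 10 members in each of the 6 libraries (TMM CPM on a log axis, horizontal bars are group means, marker shapes are replicates). *TNFAIP2* lies between 90.9 and 121.6 CPM under the LV-NC label and between 5812 and 6751 CPM under the LV-*ATF7* label, and *NFKB1* lies between 147.0 and 197.2 CPM over all 6.

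Of the subunits, *NFKB1*, which encodes p105 and its product p50, lies on the plus strand of chromosome 4 (ENSG00000109320, GRCh38, 102501329 to 102617302). It was measured at 147.1, 147.0 and 152.0 CPM in LV-NC and at 177.1, 197.2 and 191.4 CPM in LV-*ATF7*. The groups did not overlap. *NFKB1* rose from 148.7 ± 2.85 to 188.5 ± 10.4 CPM (SD, n = 3 each), with a log2 fold change of 0.34 (standard error 0.084, adjusted p = 0.00691).

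*RELA* encodes the p65 subunit, which carries the main transactivation domain of the canonical dimer, and lies on the minus strand of chromosome 11 (ENSG00000173039, 65653596 to 65663094). Its expression was 185.2, 170.0 and 176.1 CPM in LV-NC and 218.6, 221.6 and 262.2 CPM in LV-*ATF7*, where replicate 3 was the highest. The log2 fold change of *RELA* was 0.40 (standard error 0.10, adjusted p = 0.00802). With library size alone in place of TMM scaling, which shifts the median of all genes by -0.16, neither *NFKB1* (log2 fold change 0.18, adjusted p = 0.0816) nor *RELA* (0.23, adjusted p = 0.0629) passed the threshold.

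*NFKB2* encodes p100, which is both the precursor of p52 and an inhibitor of other dimers, and lies on the plus strand of chromosome 10 (ENSG00000077150, 102394110 to 102402529). Its values were 382.3, 584.6 and 578.2 CPM in LV-NC and 391.2, 392.0 and 447.4 CPM in LV-*ATF7*. LV-NC replicate 1 was below all 3 libraries labeled LV-*ATF7*, whereas LV-NC replicates 2 and 3 were above them. With all libraries, the log2 fold change was -0.33 (95% interval -0.72 to 0.06, adjusted p = 0.117). Without LV-NC replicate 1, *NFKB2* fell by 0.52 (adjusted p = 8.20e-08). It also passed with all 6 libraries under library size alone (log2 fold change -0.49, adjusted p = 0.020) and under sample quality weights (-0.53, adjusted p = 8.81e-08).

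*RELB*, the partner of p52, lies on the plus strand of chromosome 19 (ENSG00000104856, 45001430 to 45038198). It showed 111.7, 110.1 and 109.5 CPM in LV-NC and 98.9, 98.9 and 112.0 CPM in LV-*ATF7*, where replicate 3 was above every LV-NC library. Its log2 fold change was -0.10 with a 95% interval of -0.30 to 0.11 (adjusted p = 0.361). With library size alone, the log2 fold change was -0.26 (adjusted p = 0.0251).

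The IκB genes moved in opposite directions. *NFKBIA*, encoding IκBα, the inhibitor that is resynthesized after each round of NF-κB activity, lies on the minus strand of chromosome 14 (ENSG00000100906, 35401511 to 35404749) and has the match shown above. Its values were 279.2, 266.4 and 262.3 CPM in LV-NC and 601.6, 635.6 and 658.6 CPM in LV-*ATF7*. The groups were far apart, and replicates lay close together. *NFKBIA* rose 2.35-fold, with a log2 fold change of 1.23 (standard error 0.090, adjusted p = 1.41e-05).

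*NFKBIB*, encoding IκBβ, lies on the plus strand of chromosome 19 (ENSG00000104825, 38899700 to 38908893). It fell from 56.6, 49.4 and 51.6 CPM in LV-NC to 33.6, 28.8 and 33.8 CPM in LV-*ATF7*. This was a log2 fold change of -0.71 (standard error 0.11, adjusted p = 6.08e-04). Exons of *SIRT2* on the opposite strand share 1.72% of its exon bases, and whether the counting used strand is not given in the sources used here.

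*NFKBIE*, encoding IκBε, lies on the minus strand of chromosome 6 (ENSG00000146232, 44258166 to 44265788). It was at 59.6, 73.0 and 70.6 CPM in LV-NC and at 33.2, 29.4 and 34.5 CPM in LV-*ATF7*, again without overlap. The log2 fold change of *NFKBIE* was -1.07 (standard error 0.12, adjusted p = 1.04e-04). Although *NFKBIA* and *NFKBIB* both carry the κB sequence of *NFKB1* near a start, the former rose and the latter fell.

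The TNF-responsive genes showed the largest rises of the members. *TNFAIP3* encodes A20, a ubiquitin-editing enzyme that ends signaling from the TNF receptor and Toll-like receptors, and lies on the plus strand of chromosome 6 (ENSG00000118503, 137867188 to 137883312). Its values were 69.5, 75.1 and 75.6 CPM in LV-NC and 233.7, 248.6 and 239.6 CPM in LV-*ATF7*. It rose 3.28-fold, a log2 fold change of 1.71 (standard error 0.085, adjusted p = 2.77e-06).

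*BIRC3* encodes cIAP2, a ubiquitin ligase that acts at the TNF receptor and also marks the noncanonical kinase NIK for degradation, and lies on the plus strand of chromosome 11 (ENSG00000023445, 102317450 to 102339403). It was at 28.8, 35.9 and 32.2 CPM in LV-NC and at 188.4, 164.3 and 144.7 CPM in LV-*ATF7*. *BIRC3* rose 5.13-fold (log2 fold change 2.36, standard error 0.14, adjusted p = 4.91e-06).

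*TNFAIP2*, a gene induced by TNF whose product resembles an exocyst subunit, lies on the plus strand of chromosome 14 (ENSG00000185215, 103123442 to 103137439). Its expression was 121.6, 90.9 and 93.8 CPM in LV-NC and 5812, 6063 and 6751 CPM in LV-*ATF7*. The rise was 60.8-fold, with a log2 fold change of 5.93 (standard error 0.18, 95% interval 5.51 to 6.34, adjusted p = 7.90e-07), and was the 44th largest of the 12462 genes tested. The gene took 0.00948% to 0.0134% of all counts in the LV-NC libraries and 0.558% to 0.622% in those labeled LV-*ATF7*.

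**Figure D2:**
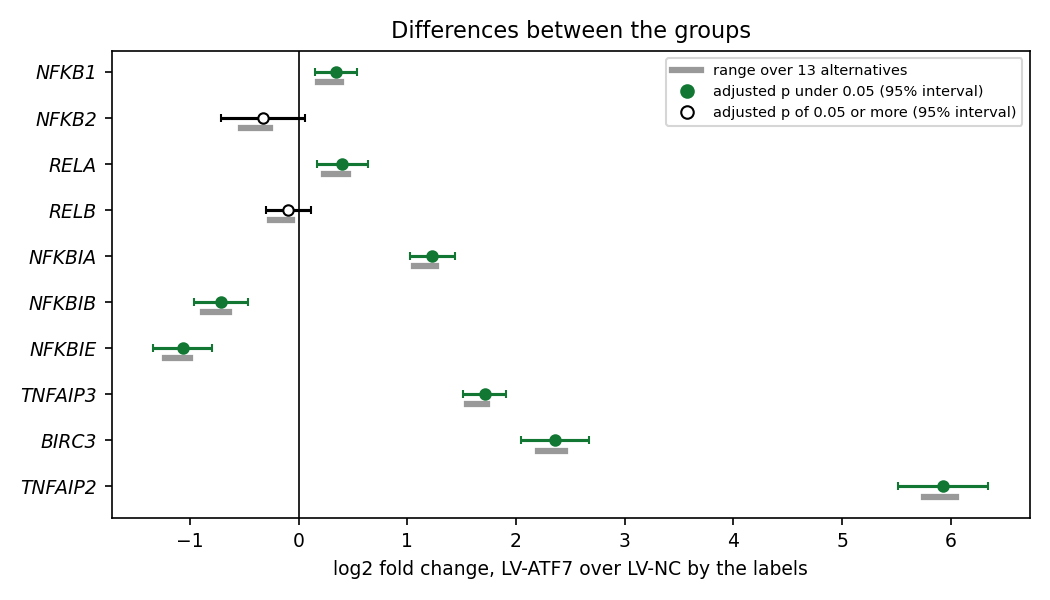
Log2 fold change of each member, LV-*ATF7* over LV-NC by the labels, with its 95% interval (whiskers) and the range over 13 alternative settings (gray bars), where filled points passed an adjusted p of 0.05. The 4 subunit genes lie between -0.33 and 0.40, *NFKBIB* and *NFKBIE* lie below 0, and *TNFAIP2* lies at 5.93.

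Ratios between members of the same library need no scaling between libraries, and 8 were computed with *RELA* or *NFKB1* as the denominator. The log2 ratio of *NFKBIA* to *RELA* counts was 0.59, 0.65 and 0.57 in LV-NC and 1.46, 1.52 and 1.33 in LV-*ATF7*, a difference of 0.83. The inhibitor transcript was thus higher relative to the subunit transcript in all 3 libraries labeled LV-*ATF7*. For *NFKBIB* the log2 ratio to *RELA* went from -1.76 ± 0.039 to -2.87 ± 0.14 (SD, n = 3 each), and for *NFKBIE* from -1.39 ± 0.22 to -2.85 ± 0.12 (SD, n = 3 each). Relative to *RELA*, the differences were 1.31 for *TNFAIP3*, 1.96 for *BIRC3* and 5.54 for *TNFAIP2*.

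Among the subunits, the log2 ratio of *RELB* to *RELA* was -0.73, -0.63 and -0.69 in LV-NC and -1.15, -1.16 and -1.23 in LV-*ATF7*. The noncanonical subunit was lower relative to the canonical one in each library labeled LV-*ATF7*, a difference of -0.50. That of *NFKB2* to *NFKB1* was 1.38, 1.99 and 1.93 in LV-NC and 1.14, 0.99 and 1.22 in LV-*ATF7*, a difference of -0.65, or -0.84 without LV-NC replicate 1. The groups did not overlap for any of the 8 ratios, where single genes did not overlap in 72.7% of cases. How often ratios of other genes separate was not tested. After TMM scaling, the denominators *RELA* and *NFKB1* rose without overlap themselves, by 0.40 and 0.34. The numerators *RELB* and *NFKB2* overlapped and did not pass on their own. With library size alone, *RELB* (adjusted p = 0.0251) and *NFKB2* (adjusted p = 0.020) fell and passed. *RELA* (adjusted p = 0.0629) and *NFKB1* (adjusted p = 0.0816) then did not pass. How these 2 ratios divide between numerator and denominator thus depends on the scaling. Each of the 8 ratios gave p = 0.10 in a two-sided exact permutation test, the smallest p that 3 libraries against 3 allow. It was 0.10 after adjustment over the 8 ratios.

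**Figure D3:**
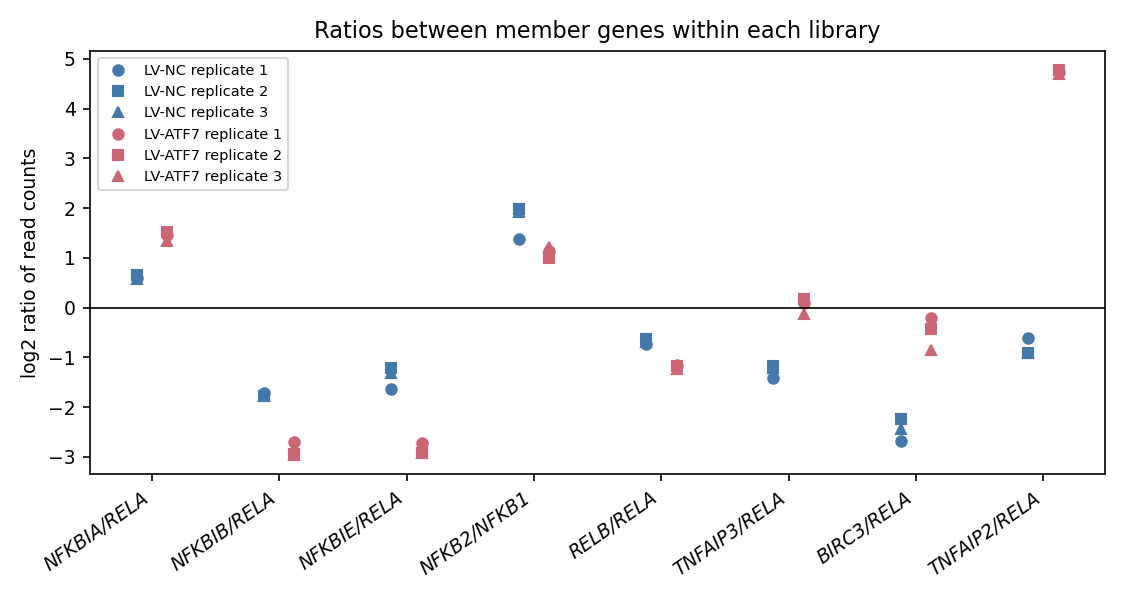
Log2 ratio of read counts (vertical axis) for 8 pairs of members in each of the 6 libraries (colors are groups, marker shapes are replicates). The groups are apart for all 8 ratios, by 5.54 for *TNFAIP2* to *RELA* and by -0.50 for *RELB* to *RELA*.

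Levels of different genes were compared as CPM per kilobase of exons counted once (GENCODE release 29). In LV-NC the highest were *NFKB2*, at 114.9 ± 25.6 CPM per kb, and *NFKBIA*, at 113.5 ± 3.71 CPM per kb (SD, n = 3 each), and the libraries of this pair overlapped. *RELB* followed at 36.4 CPM per kb and *RELA* at 32.4 CPM per kb. Next were *NFKBIE*, *NFKB1*, *NFKBIB* and *TNFAIP2*, from 26.2 down to 20.3 CPM per kb, where each overlapped its neighbor in the order. *TNFAIP3* was at 14.5 ± 0.67 and *BIRC3* at 4.30 ± 0.47 CPM per kb (SD, n = 3 each), the lowest of the members.

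In LV-*ATF7* the order was different. *TNFAIP2* was first at 1235 ± 96.7 CPM per kb, ahead of *NFKBIA* at 266.3 ± 12.1 and *NFKB2* at 91.5 ± 7.18 CPM per kb (SD, n = 3 each). *TNFAIP3*, next to lowest of the members in LV-NC, followed at 47.6 CPM per kb, and its libraries overlapped those of *RELA* at 42.9 CPM per kb. *RELB* at 34.0, *NFKB1* at 30.1 and *BIRC3* at 22.1 CPM per kb came next. *NFKBIB* at 13.8 and *NFKBIE* at 12.5 CPM per kb were the lowest and overlapped.

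With *REL* included, the 5 Rel family transcripts were also expressed as shares of their summed level per kilobase in a library. *NFKB2* made up 54.4% ± 6.53 in LV-NC and 45.6% ± 0.54 in LV-*ATF7* (SD, n = 3 each), and LV-NC replicate 1, at 46.9%, was closer to the latter. *RELA* went from 15.7% ± 2.57 to 21.3% ± 0.68 and *NFKB1* from 11.5% ± 1.29 to 15% ± 1.07 (SD, n = 3 each). *RELB* stayed near 17.6% and 16.9%, and *REL*, which encodes c-Rel, made up 0.88% and 1.16%. *REL* shares 43.3% of its exon bases with another gene on the same strand, so its level is uncertain.

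The other genes of the pathway were counted in lists written by role, with earlier results of these data known. Of 27 genes of the IKK complex and its adaptors, 12 rose, 8 fell and 7 did not pass the test, a share called of 74.1% beside 67.6% of all genes, with a median log2 fold change of 0.13. The kinases of the IKK complex diverged. *IKBKB*, the IKKβ gene of the canonical arm, rose from 56.4, 53.0 and 51.5 CPM in LV-NC to 108.1, 115.7 and 117.6 CPM in LV-*ATF7* (log2 fold change 1.09, adjusted p = 2.51e-05). *CHUK*, the IKKα gene that the noncanonical arm needs, fell from 110.5, 112.1 and 102.2 CPM to 52.3, 50.3 and 42.6 CPM (log2 fold change -1.16, adjusted p = 4.50e-05). Each gene was without overlap, and the first exceeded the second only in the libraries labeled LV-*ATF7* on the CPM scale, which is not corrected for length.

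*IKBKG*, which encodes the scaffold NEMO, had a log2 fold change of -1.01 (adjusted p = 5.71e-04), and *MAP3K14*, which encodes NIK, the kinase upstream of p100 processing, fell by 1.64 (adjusted p = 1.95e-04). The adaptors *TRAF2* and *TRAF3*, which assemble with the cIAP proteins, rose by 1.08 (adjusted p = 0.00134) and 0.68 (adjusted p = 0.00416). *BIRC2*, which encodes cIAP1 and lies 7.8 kb from *BIRC3*, was at 80.6 ± 15.6 CPM in LV-NC and 70.8 ± 7.37 CPM in LV-*ATF7* (SD, n = 3 each), with a log2 fold change of -0.19 (95% interval -0.54 to 0.17, adjusted p = 0.306). Its neighbor *BIRC3* had a log2 fold change of 2.36, and the difference between the pair was not tested.

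Of 19 receptor genes listed, 16 were tested, and 6 rose, 8 fell and 2 did not pass, a share called of 87.5% beside 67.6% of all genes. The median log2 fold change was -0.0034. Summed over the tested receptors, expression was 1408 to 1464 CPM in LV-NC and 886.7 to 973 CPM in LV-*ATF7*. Outside the rule for named genes, those that fell were *TNFRSF12A*, *IL1RAP*, *TNFRSF11A*, *TLR6*, *TNFRSF10A*, *TNFRSF10B*, *IL17RA* and *IL17RC*. *TNFRSF12A* went from 622 to 137 CPM by group means (log2 fold change -2.18, adjusted p = 2.1e-06), and *IL1RAP* fell by 0.51 (adjusted p = 0.00683). *TNFRSF1A*, the main TNF receptor gene, rose from 81.9 ± 3.85 to 144.6 ± 11.9 CPM (SD, n = 3 each), with a log2 fold change of 0.82 (adjusted p = 1.53e-04). *LTBR*, the lymphotoxin β receptor gene, rose by 0.44 (adjusted p = 0.00702). *IL1R1*, the IL-1 receptor gene, rose by 0.47 (adjusted p = 0.0147), but its adjusted p was 0.0535, 0.0743, 0.0753 and 0.0509 without LV-*ATF7* replicate 1, LV-*ATF7* replicate 2, LV-NC replicate 2 and LV-NC replicate 3, and 0.0897 with library size alone. *TLR3*, a sensor of double-stranded RNA, had a log2 fold change of 0.32 (adjusted p = 0.139), which became 0.48 (adjusted p = 0.00126) without LV-NC replicate 1. *TLR2* had no row in the table.

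Among 20 further Rel, IκB and feedback genes, 7 rose, 9 fell and 4 did not pass, a share called of 80.0% beside 67.6% of all genes. The median log2 fold change was -0.25, beside 1.6e-04 over all genes. Without LV-NC replicate 1 all 20 passed, and the share over all genes was 80.1%. Atypical IκB genes were among those that rose. *BCL3*, a nuclear IκB that binds p50 and p52 dimers, rose from 24.3, 26.2 and 25.4 CPM to 94.7, 98.9 and 115.2 CPM (log2 fold change 2.02, adjusted p = 3.87e-06). *NFKBIZ*, the gene of IκBζ, a nuclear cofactor for secondary response genes, rose from 94.0 ± 27.6 to 201.8 ± 7.90 CPM (SD, n = 3 each), with a log2 fold change of 1.10 (adjusted p = 0.00107).

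*TNIP1*, whose product binds A20, rose by 0.98 (adjusted p = 8.73e-05), the same direction as *TNFAIP3*. *CYLD*, a deubiquitinase that also limits the pathway, fell by 0.51 (adjusted p = 0.00136). Outside the rule for named genes, *RNF11* fell by 1.53 (adjusted p = 1.16e-05), *OTUD7B* by 1.20 (adjusted p = 1.83e-05) and *TAX1BP1* by 0.91 (adjusted p = 1.7e-04), opposite to *TNFAIP3*. The remaining genes of this list that fell were *OTULIN*, *COMMD1*, *PDLIM2*, *NKIRAS1* and *NKIRAS2*. *REL* had values of 30.9, 16.4 and 23.2 CPM in LV-NC and 31.4, 33.2 and 26.2 CPM in LV-*ATF7* (log2 fold change 0.37, adjusted p = 0.173), whereas leaving out LV-NC replicate 1 gave 0.60 (adjusted p = 2.08e-04). *TRAF1* was lowest in LV-NC replicate 1, at 0.59 CPM beside 4.51 and 4.51 CPM in the other two, and its log2 fold change went from -0.32 (adjusted p = 0.642) to -0.84 (adjusted p = 7.66e-04) without that library.

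Of 45 target genes listed, 37 were tested, and 27 rose, 8 fell and 2 did not pass. The share called was 94.6%, beside 67.6% of all genes, and the median log2 fold change was 2.06, beside 1.6e-04. Because the list was written with earlier results of these data known, this contrast is a description and not a test. The listed genes without a row were *CXCL2*, *CXCL5*, *CXCL6*, *CXCL10*, *IL36G*, *BCL2A1*, *MMP9* and *DEFB4A*. With at least 10 counts required in every library, 29 target genes were left to test and 27 of them passed. This was 93.1%, beside 66.1% of all genes under the same filter. *SOD2*, the mitochondrial superoxide dismutase gene, rose from 134.9, 118.8 and 122.0 CPM to 997.8, 959.9 and 902.4 CPM (log2 fold change 2.93, adjusted p = 9.77e-07). *SAA1*, an acute phase protein gene, rose by 3.05 (adjusted p = 2.12e-05), *LCN2*, which encodes an iron-sequestering antimicrobial protein, by 2.50 (adjusted p = 2.66e-04), and the adhesion gene *ICAM1* by 1.01 (adjusted p = 0.00189).

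Cytokine genes were among those that rose. *IL1B* was at 40.2, 7.81 and 6.19 CPM in LV-NC, with replicate 1 the highest, and at 76.8 to 80.5 CPM in LV-*ATF7* (log2 fold change 2.13, adjusted p = 0.0163). Leaving out LV-NC replicate 1 gave a log2 fold change of 3.47, and without LV-*ATF7* replicate 3 its adjusted p was 0.0586. *IL1A* rose by 2.74 (adjusted p = 6.26e-04), or by 3.47 without LV-NC replicate 1, the neutrophil chemokine gene *CXCL8* by 1.34 (adjusted p = 0.00634) and *CCL20* by 3.04 (adjusted p = 9.56e-05), the last from a mean of only 0.52 CPM. *IER3*, an immediate early target, fell from 137.3 ± 7.93 to 97.0 ± 14.1 CPM (SD, n = 3 each), with a log2 fold change of -0.50 (adjusted p = 0.00662).

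Some targets outside the rule for named genes are given after their values were seen, because the list held movements in both directions. *CCL2*, which encodes a monocyte chemokine, rose from 1.55, 0.996 and 0.695 CPM to 160.8, 173.3 and 170.5 CPM, and *CXCL1*, a neutrophil chemokine gene, from 16.0, 11.2 and 10.7 CPM to 274.7, 293.7 and 297.5 CPM. *TNF* itself rose 1.43 on the log2 scale (adjusted p = 0.00777) but was at most 1.68 CPM in any library. *IL6* fell from 6.91, 8.18 and 11 CPM to 2.01, 3.16 and 3.54 CPM (log2 fold change -1.58, adjusted p = 0.00104). *CCL5* was at 0.54, 9.59 and 10.1 CPM in LV-NC, where replicate 1 stood near the other group, and 0.28, 0.20 and 0.22 CPM in LV-*ATF7* (log2 fold change -4.81, adjusted p = 0.00424), and *CSF2* fell with it (log2 fold change -3.27, adjusted p = 0.00362). The remaining genes of the list that fell were *IER3*, *CD83*, *SDC4*, *RNF19B* and *GADD45B*. *GADD45B* went from 318.8 ± 81.3 to 52.6 ± 5.80 CPM (SD, n = 3 each), with a log2 fold change of -2.60 (adjusted p = 1.36e-05). *RNF19B* fell by 1.18 (adjusted p = 2.29e-04), *CD83* by 1.07 (adjusted p = 4.56e-04) and *SDC4* by 0.62 (adjusted p = 0.00134).

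**Figure D4:**
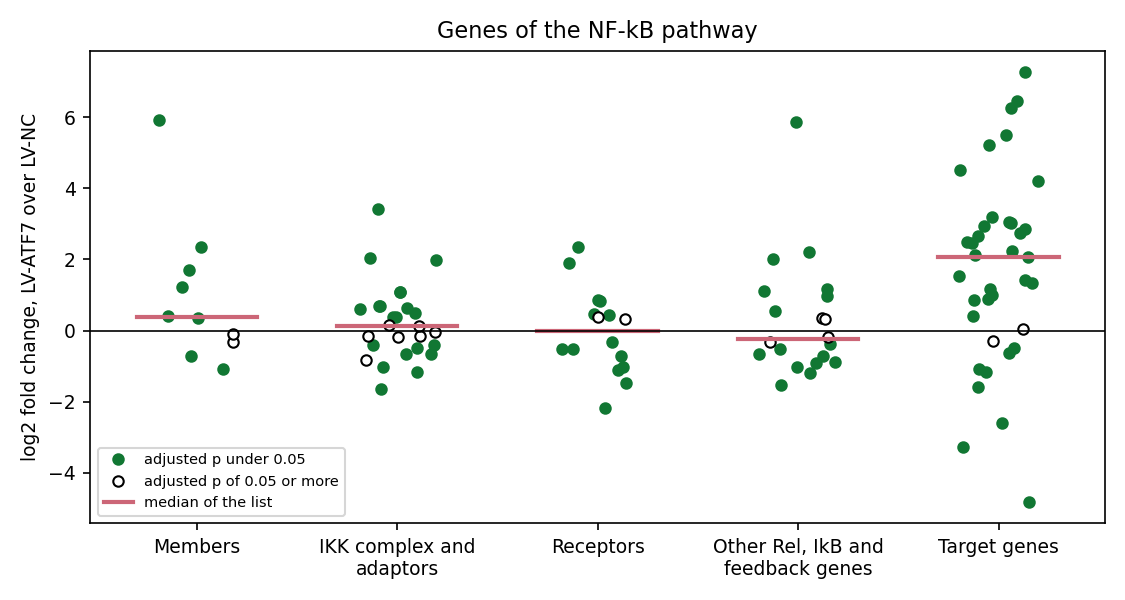
Log2 fold change (LV-*ATF7* over LV-NC by the labels) of each tested gene in the members and the 4 pathway lists, where filled points passed an adjusted p of 0.05 and red bars are medians. The median of the target genes is 2.06 and those of the other lists lie between -0.25 and 0.37.

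The nearest genes of the table on either side of the members were looked at by position, and those named here were chosen after their values were seen. *EXOC3L4*, 12.9 kb from *TNFAIP2* and a relative of it, had 0, 0 and 4 counts in the LV-NC libraries and 196, 196 and 240 counts in those labeled LV-*ATF7*. On the other side, *EIF5*, 196.1 kb away, had a log2 fold change of -0.55 (adjusted p = 7.82e-04). Beside *NFKBIE*, *SLC35B2* lies 0.3 kb away and rose by 1.25 (adjusted p = 4.98e-05), whereas *NFKBIE* fell. *SIRT2*, which overlaps *NFKBIB* on the opposite strand, fell by 1.72 (adjusted p = 1.47e-05), the same direction as *NFKBIB*. *PERP*, 205.2 kb from *TNFAIP3*, had a log2 fold change of 0.29 (adjusted p = 0.0609), and *RALGAPA1*, 133.6 kb from *NFKBIA*, fell by 1.35 (adjusted p = 3.31e-05).

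By Pearson's r of log2 CPM over the 6 libraries, which fall into 2 groups of 3, the genes most like *NFKBIA* were *NT5DC2*, *RPL15* and *ZBTB42*, and 845 genes had r above 0.99 with it. For *NFKB2* the nearest were *EFTUD2*, *JUP* and *DMAC2*, and 32 genes had r above 0.99. Such likeness describes the split of the groups for the former, and for the latter a pattern in which LV-NC replicates 2 and 3 stand above the other 4 libraries.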

How the data were processed

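Per the labels, HaCaT poly(A) RNA was captured on oligo(dT) beads and sequenced in 6 libraries, 3 per group. Raw gene-level counts were deposited by the authors, who named GRCh38 as the build in the submitters' processing notes. The aligner, counter, annotation and strand setting are not given in the sources used here. The deposited FPKM values and the authors' own fold changes and p-values were not used. With edgeR 4.0.16 in R 4.3.3, TMM factors were computed and the quasi-likelihood test (glmQLFit, glmQLFTest) was run on all genes without covariates, at a Benjamini-Hochberg adjusted p of 0.05 over the 12462 genes that passed filterByExpr (37 did not). The standard error is the log2 fold change divided by the square root of F. Replicates differed by more than sampling noise, and the lowest count of a member in any library was 538. Counting error was not separated from the spread between libraries.

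Members and lists were chosen with earlier results of these data known. Genes named were the members, *ATF7*, 27 genes of the lists fixed by name, and the 3 genes most like *NFKB2* and *NFKBIA*, beside marker genes, and others are said to be outside this rule. Protein sequences were not used here. Positions are from GENCODE release 29, which held 12485 of the 12499 identifiers. Ratios used 0.5 added counts and exact permutation tests in Python 3.11.15. The alternatives were each library left out, a block for the replicate number, DESeq2 1.42.0, voom with quality weights per sample (limma 3.58.1), scaling by library size alone or by upper quartile, a filter of 10 or more counts per library or none, and, for ratios, 2 added counts.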

Additional observations from a re-analysis of the deposited data

How the results depend on the processing

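No member changed direction in any of the 13 alternatives run for it, and 6 members, *NFKBIA*, *NFKBIB*, *NFKBIE*, *TNFAIP3*, *BIRC3* and *TNFAIP2*, kept their call in all of them. The number of members called was 8 with DESeq2, 10 with sample quality weights, and 8 to 9 over the 6 leave-one-out fits, the higher number without LV-NC replicate 1. Over all genes the calls moved too, from 8429 (67.6%) in the main fit to 8447 (67.6%) with DESeq2. They were 10391 (83.4%) with sample quality weights and 10011 (80.1%) without LV-NC replicate 1. *RELB* was called with sample quality weights (log2 fold change -0.13, adjusted p = 0.0497) and with library size only, and its adjusted p ranged from 0.0251 to 0.656. *NFKB2* was also called with library size only (log2 fold change -0.49, adjusted p = 0.020), and its adjusted p ranged from 8.20e-08 to 0.263. The cause of these changes was not tested. With library size only, 42.4% of all calls were higher in LV-*ATF7* against 51.3% with TMM. Of the 26 named list genes tested, none reversed. Over the leave-one-out fits, the number called ran from 16 to 21 (59.3% to 77.8%) for the IKK and adaptor genes. It ran from 11 to 15 (68.8% to 93.8%) for the receptors and from 14 to 20 (70% to 100%) for the other Rel, IκB and feedback genes. For the target genes it ran from 32 to 35 (86.5% to 94.6%), beside 7290 to 10011 (58.3% to 80.1%) over all genes.

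Libraries with the same replicate number showed little shared deviation, with correlations of deviations from the group means of 0.058, -0.021 and 0.065. Whether such libraries shared a culture or a day is not stated in the labels, and these correlations cannot decide it. The library names of the LV-NC group skip a number, so replicate 3 carries a different library number in each group. With the replicate block, 8 members and 8210 genes were called, and *ATF7* had a log2 fold change of -0.99.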
